A study of Mus musculus with 9 samples.

Results

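Solute carriers are membrane proteins that move nutrients, metabolites, ions and metals into and out of the cell and its compartments. Their Slc genes were examined in splenic B cells of Eµ-MTCP1, Eµ-TCL1 and wildtype mice. Genes were chosen by name, an Slc symbol with a family number, and by level, a base mean of at least 20 normalised reads in the authors' table, with 1 Slc gene left out. Of 372 Slc genes in that table, 162 met the level, against 10036 of all 22174 genes. The genes just inside were Slc6a9 (base mean 21), Slc3a1 (21.1) and Slc52a3 (21.8), and those just outside were Slc6a13 (19.7), Slc45a4 (19.6) and Slc1a4 (18.8). The base mean averages over the libraries of all groups, so a gene could pass through the group where it is high. Transgenic libraries outnumber wildtype ones, so their level weighed more. For 19 of the 162 genes the mean of at least 1 group was under 20 normalised reads. Slc44a4, Slc52a3, Slc36a4 and Slc29a4, which are described below as changed, are among them. So are Slc15a2, Slc30a1 and Slc40a1, also described below.

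RNA came from splenic B cells of 9 mice, 3 of each group, with 1 library per mouse, on the strain C57/BL6NTac. B cells were isolated by removal of the other cells (a pan-B kit). Eµ-MTCP1 mice carry human MTCP1, and Eµ-TCL1 mice carry human TCL1, each under an immunoglobulin heavy chain promoter and Eµ enhancer that direct it to B cells. All Eµ-MTCP1 mice belong to 1 founder line (Z36), whose transgene sits in an intron of Fam168a, so an effect of that insertion and of the protein cannot be told apart. Transgenic mice were age-matched and diseased, and wildtype mice carry neither transgene, so the transgene and the disease cannot be told apart either. Ages and sexes of single mice were not used, so no comparison is adjusted for them. In the authors' log2-like values, human MTCP1 lay between 11.12 and 12.3 in Eµ-MTCP1 mice and between 5.85 and 6.19 in the other 6 mice. Human TCL1A lay between 14.93 and 15.6 in Eµ-TCL1 mice and between 6.04 and 6.96 elsewhere, so both transgenes followed the labels.

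Between 6447542 and 8033303 reads per library were assigned to coding sequences. A level is given as TPM (transcripts per a fixed total, which corrects for length) where genes are compared, and as CPM (counts per a fixed library total, after TMM scaling) where mice are compared. Values of mice are listed as replicates 1, 2 and 3 of a group. A gene was called when edgeR's quasi-likelihood test gave an adjusted p under 0.05, and "rose" and "fell" are used only of called genes. With 3 mice a group, a gene that was not called is not shown to be unchanged. The B cell markers Cd79a, Cd79b, Ms4a1, Pax5, Cd22 and Blk summed to 7840 to 9140 CPM in Eµ-MTCP1, 6090 to 8150 in Eµ-TCL1 and 6280 to 7550 in wildtype mice, and none of the 6 was called. In such bulk samples, fewer cells of a type and less RNA per cell cannot be told apart.

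In lymphocytes, amino acids enter chiefly through exchangers and sodium-coupled carriers of the Slc1, Slc7 and Slc38 families. Slc7a5 and several relatives work only as a pair with Slc3a2, which carries them to the surface. Slc2 genes encode glucose carriers and Slc25 genes the carriers of the inner mitochondrial membrane. Slc39 proteins bring zinc and related metals into the cytosol, and Slc30 proteins remove zinc from it.

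The promoter windows of 4 genes with changed RNA are shown because these genes moved in the same direction in both transgenic groups and their sequences are in the RefSeq table. They comprise the cationic amino acid carriers Slc7a7 and Slc7a1, the gene without reads in wildtype mice, Slc44a4, and the phosphate carrier Slc20a1, which fell. Each window runs from 250 bases before to 50 bases after the most upstream listed start (RefSeq, GRCm38.p6, 5′ to 3′ on the gene's strand). Capitals mark matches, on either strand, to CACGTG (an E-box), TGATGNAA (the core of the amino acid response element) or TGCNCNC (the core of the metal response element).
Slc7a7, chr14:54417895-54418194, minus strand: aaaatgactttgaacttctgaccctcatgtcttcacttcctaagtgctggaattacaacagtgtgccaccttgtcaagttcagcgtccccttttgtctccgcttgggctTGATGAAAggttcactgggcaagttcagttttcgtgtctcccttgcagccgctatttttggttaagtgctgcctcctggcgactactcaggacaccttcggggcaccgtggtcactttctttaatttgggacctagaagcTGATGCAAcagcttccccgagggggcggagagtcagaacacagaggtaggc
Slc7a1, chr5:148399855-148400154, minus strand: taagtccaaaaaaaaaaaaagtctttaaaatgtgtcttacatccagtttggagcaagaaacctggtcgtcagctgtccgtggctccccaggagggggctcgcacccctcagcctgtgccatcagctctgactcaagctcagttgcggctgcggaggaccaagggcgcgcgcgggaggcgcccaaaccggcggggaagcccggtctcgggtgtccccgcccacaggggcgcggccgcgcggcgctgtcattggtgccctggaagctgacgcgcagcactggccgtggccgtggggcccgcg
Slc44a4, chr17:34914216-34914515, plus strand: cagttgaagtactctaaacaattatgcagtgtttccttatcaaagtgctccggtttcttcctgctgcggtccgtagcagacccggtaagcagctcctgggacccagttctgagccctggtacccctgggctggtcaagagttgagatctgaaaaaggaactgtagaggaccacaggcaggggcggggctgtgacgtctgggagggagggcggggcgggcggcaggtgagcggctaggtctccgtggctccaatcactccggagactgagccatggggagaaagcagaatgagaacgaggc
Slc20a1, chr2:129198523-129198822, plus strand: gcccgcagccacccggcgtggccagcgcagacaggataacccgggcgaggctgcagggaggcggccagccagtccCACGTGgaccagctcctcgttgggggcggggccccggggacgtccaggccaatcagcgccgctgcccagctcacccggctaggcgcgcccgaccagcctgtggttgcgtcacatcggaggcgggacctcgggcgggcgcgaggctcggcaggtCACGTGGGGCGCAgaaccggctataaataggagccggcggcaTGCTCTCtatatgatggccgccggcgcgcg
Slc7a7 has 5 listed windows, Slc7a1 and Slc20a1 have 2 each and Slc44a4 has 1, and only the most upstream is shown. The shown Slc7a7 window lies wholly upstream of the gene span given below. It held 2 matches to TGATGNAA. That motif was found in 3.97% of all 32851 windows and in 5 of the 165 windows that matched 120 of the 162 genes (3.03%). In the Slc20a1 window there were 2 matches to CACGTG, held by 7.15% of all windows and 13.9% of those of the Slc genes, and 2 to TGCNCNC, held by 51.0% and 58.2%. One match to TGCNCNC adjoins the second CACGTG. The Slc7a1 and Slc44a4 windows held none of the 3 motifs. A match is a description of letters, and binding was not measured here.

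In wildtype B cells the Slc genes were led by carriers of the mitochondrial inner membrane. Slc25a5, an ADP/ATP exchanger, stood highest at 661 ± 62.4 TPM (SD, n = 3), followed by the phosphate carrier Slc25a3 at 267 ± 24.0 TPM. Next came the sugar carrier Slc50a1 (211 ± 11.1 TPM), the heavy chain of amino acid exchangers Slc3a2 (153 ± 19.5), the second ADP/ATP exchanger Slc25a4 (146 ± 9.09) and the glutamine carrier Slc1a5 (124 ± 34.9). The order ended with Slc35a4 (115 ± 54.5), Slc35c2 (98.7 ± 25.2), the choline carrier-like Slc44a2 (94.5 ± 18.7) and the glutamine carrier Slc38a1 (89.6 ± 30.1). Slc25a5, Slc25a3 and Slc50a1 each stood clear of the genes below them in every wildtype mouse, whereas from Slc3a2 down neighbouring genes did not differ beyond their spread. These 10 genes held 49.3% of the summed wildtype TPM of the 162, whose median was 8.58 TPM. Slc25a4 and Slc25a5 have closely similar coding sequences, so the division of reads between them is less certain than their sum. The 162 genes together took 0.348 to 0.37% of all TPM in Eµ-MTCP1, 0.371 to 0.419% in Eµ-TCL1 and 0.364 to 0.451% in wildtype mice, so that both transgenic ranges overlapped that of wildtype. None of the 10 highest genes was called in either comparison with wildtype, with adjusted p between 0.115 and 0.986.

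**Figure D1:**
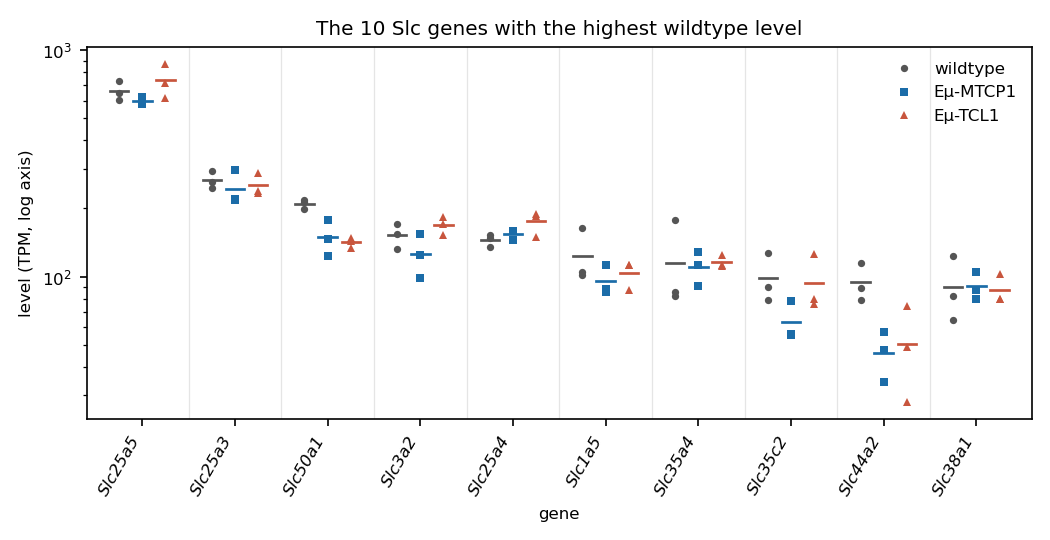
TPM on a log axis of the 10 Slc genes with the highest wildtype mean. Each point is 1 mouse (circles wildtype, squares Eµ-MTCP1, triangles Eµ-TCL1) and each bar a group mean. Slc25a5 lies highest in all 3 groups, and for most genes the points of the groups overlap.

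Whether the transgenes altered the carriers was tested first against wildtype. In Eµ-MTCP1 mice 17 of the 162 Slc genes were called, 10 higher and 7 lower, which is 10.5% of them against a background of 9.48% of all 11165 genes tested (5.49% higher and 3.99% lower). In Eµ-TCL1 mice 14 were called, 10 higher and 4 lower, or 8.64% against 9.2% (5.07% higher and 4.13% lower). Both shares are close to their background, so these counts are no result about the Slc genes as a set. The background also holds genes below the base mean required of the Slc genes, so the levels are not matched. Median log2 fold changes were 0.061 and 0.05 over the 162 genes, and -0.021 and -0.0095 over all genes tested. The comparisons share the wildtype mice, and 7 Slc genes were called higher and 3 lower in both. Scaling by library size alone, which moved the median of all genes in Eµ-MTCP1 mice to -0.26, changed the calls there to 6 higher and 9 lower.

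Leaving out 1 mouse at a time gave the lowest of these counts, and DESeq2 the highest, 23 in Eµ-MTCP1 and 24 in Eµ-TCL1 mice. The 17 calls in Eµ-MTCP1 mice became 6 without wildtype replicate 3, 7 without wildtype replicate 2 (the only library on another lane, by its column name), 11 without wildtype replicate 1, 6 without Eµ-MTCP1 replicate 3 and 11 without Eµ-MTCP1 replicate 2. The 14 calls in Eµ-TCL1 mice became 6, 7 and 7 without wildtype replicates 3, 2 and 1. Of the genes described here, those that remained called in all 18 alternatives were Slc7a7, Slc39a4 and Slc7a1 in both comparisons, Slc20a2 and Slc37a1 in Eµ-MTCP1 mice, and Slc52a2 in Eµ-TCL1 mice. Each other call described was lost in at least 1 of them, with a highest adjusted p for a gene between 0.0628 and 0.495. In Eµ-MTCP1 mice the call held in 15 of the 18 for Slc20a1, 14 for Slc7a5 and Slc52a3, 13 for Slc14a1, 12 for Slc44a4 and Slc48a1, 11 for Slc2a3, 10 for Slc36a4, Slc37a4 and Slc4a7, and 7 for Slc29a4. In Eµ-TCL1 mice it held in 17 for Slc4a7, 16 for Slc44a4, 14 for Slc14a1 and Slc48a1, 13 for Slc37a4, 12 for Slc25a17, 11 for Slc22a5, 9 for Slc20a1 and 7 for Slc15a3.

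By substrate, the amino acid carriers had 4 of 18 genes higher and none lower in Eµ-MTCP1 mice, and 2 of 18 higher in Eµ-TCL1 mice. Over all genes tested, 5.49% were higher and 3.99% lower in the first comparison and 5.07% and 4.13% in the second, and in classes this small no count was tested against those shares. Median log2 fold changes of the amino acid carriers were 0.47 and 0.37, or 0.23 in both when scaled by library size alone. Metal carriers had 2 of 23 higher in each comparison (medians 0.15 and 0.2, which moved to -0.079 and 0.056 under that scaling). The Slc25 family, mostly mitochondrial carriers and the largest class, had 1 of 32 and 2 of 32 higher, with medians of 0.057 and 0.079 that turned to -0.18 and -0.058 under that scaling. Among the 21 carriers of inorganic ions, the Eµ-MTCP1 comparison called 1 higher and 2 lower and the Eµ-TCL1 comparison 2 lower, with medians of -0.32 and -0.19 (-0.56 and -0.34 scaled by library size alone). Of 11 sugar carriers, 1 rose and 2 fell in Eµ-MTCP1 mice, while 1 rose in Eµ-TCL1 mice (medians -0.43 and -0.49, or -0.66 and -0.62 under that scaling). The smaller classes had at most 2 calls each: in Eµ-MTCP1 and Eµ-TCL1 mice respectively 1 lower and 2 lower of 8 organic ion carriers, 1 lower and 1 higher of 7 vitamin carriers, 1 higher and 1 higher of 6 lipid and choline carriers, 1 lower and 0 of 4 nucleoside carriers, and 0 and 1 higher of 3 peptide carriers. No gene was called among the 19 carriers of nucleotide sugars and related Golgi substrates or the 5 of carboxylates, which include the lactate carriers Slc16a1 and Slc16a3. The symbols Slc9a3r1, Slc9a3r2, Slc7a6os and Slc4a1ap are named after a transporter without encoding one, and none of the 4 was called.

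**Figure D2:**
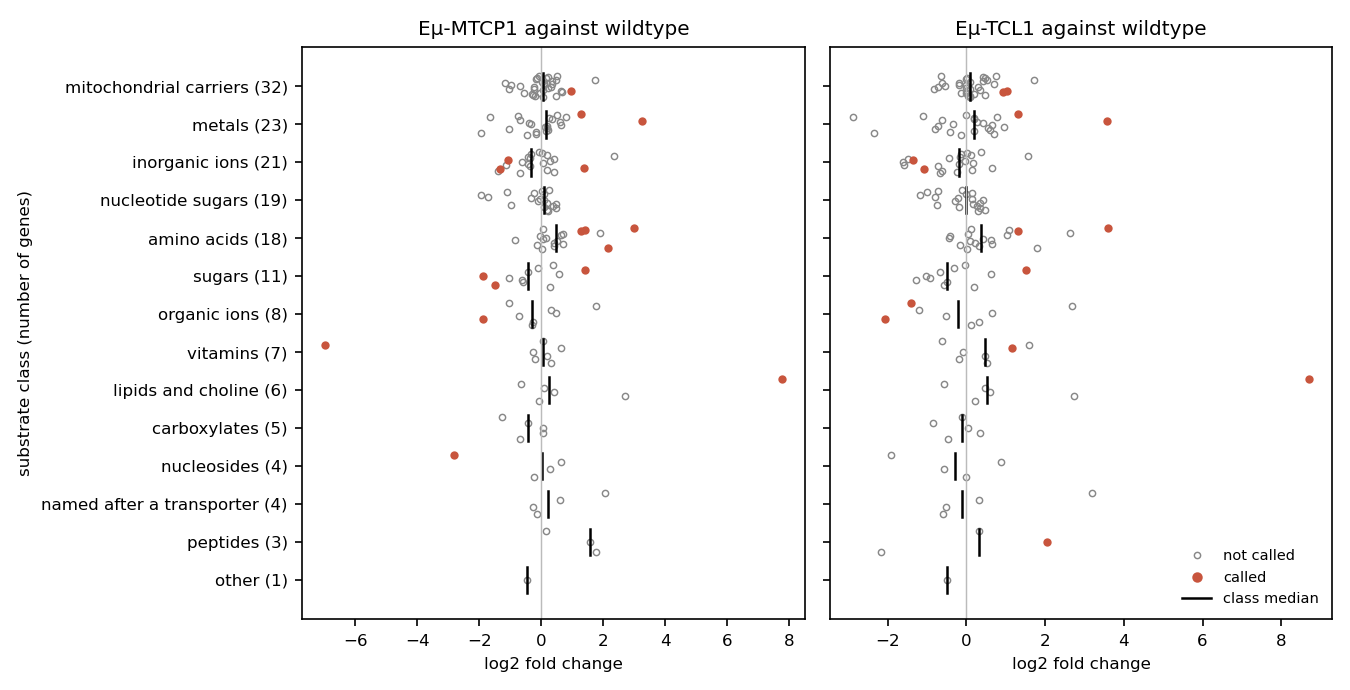
Log2 fold change against wildtype (horizontal axis) of each of the 162 Slc genes by substrate class, with Eµ-MTCP1 on the left and Eµ-TCL1 on the right. Filled points were called at an adjusted p under 0.05, open points were not, and the black bar is the class median. The outermost points, Slc44a4 at 7.76 and 8.71 and Slc52a3 at -6.97, rest on a group without reads and depend on the prior count of the fit.

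The amino acid carrier Slc7a7 rose with the lowest adjusted p of the 162 genes in both comparisons. Slc7a7 (chr14:54369442-54417780, GRCm38) encodes y+LAT1, a light chain that exports cationic amino acids in exchange for neutral ones. Its level was 102, 136 and 175 CPM in Eµ-MTCP1, 233, 258 and 138 in Eµ-TCL1 and 23.1, 15.5 and 13.4 CPM in wildtype mice. Each transgenic mouse lay above every wildtype mouse, by 4 times or more. The log2 fold change was 2.99 ± 0.32 (SE; adjusted p = 0.000478) in Eµ-MTCP1 and 3.6 ± 0.33 (adjusted p = 0.000197) in Eµ-TCL1 mice, and reads fell mostly on 1 isoform of 1533 coding bases. With isoform length offsets the log2 fold changes were larger, 4.05 (adjusted p = 0.000669) and 4.4 (adjusted p = 0.000437). Slc7a7 is also known from macrophages, so the 8 myeloid markers are given beside it: 1 of 8, Cd68, was called higher in each comparison, and none was called lower. Their summed level was 843 to 1300 CPM in Eµ-MTCP1, 358 to 1540 in Eµ-TCL1 and 837 to 1740 in wildtype mice, and no marker was at 0 in any group. Lyz2, the most abundant of them, had 214 to 648, 94.4 to 1020 and 559 to 929 CPM in the same order. Cd68 itself had 224 CPM in Eµ-MTCP1 mice on average, with single mice at 177, 172 and 323 CPM, against 68.3, 56.2 and 36.1 CPM in wildtype mice. In Eµ-TCL1 mice it had 212, 236 and 154 CPM, and no transgenic mouse overlapped with wildtype in either group (log2 fold changes 2.06 ± 0.32 and 1.91 ± 0.32, adjusted p = 0.00316 and 0.00462). The part of myeloid RNA in the Slc7a7 values was not tested.

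Slc7a1, the main importer of arginine and lysine, was at 198, 114 and 155 CPM in Eµ-MTCP1, 195, 115 and 163 in Eµ-TCL1 and 62.4, 64.7 and 65.3 CPM in wildtype mice. The transgenic groups did not overlap with wildtype, whose mice lay close together. The log2 fold changes were 1.28 ± 0.25 and 1.3 ± 0.25 (adjusted p = 0.00957 and 0.00867).
Slc7a5, which imports leucine and other large neutral amino acids, rose in Eµ-MTCP1 mice, from 30.1, 22.9 and 22.7 CPM in wildtype mice to 65.9, 80.8 and 54.6 CPM (log2 fold change 1.41 ± 0.33, adjusted p = 0.0254). In Eµ-TCL1 mice it was at 85.0, 37.3 and 36.2 CPM, all above wildtype, but was not called (adjusted p = 0.0724). The direct difference between the transgenic groups was -0.35 ± 0.33 on the log2 scale (adjusted p = 0.886). Its partner chain Slc3a2 stood at 266, 395 and 222 CPM in Eµ-MTCP1, 404, 305 and 420 in Eµ-TCL1 and 346, 257 and 243 CPM in wildtype mice, with overlap between all groups and no call.
Slc36a4, a carrier of proline and tryptophan, rose in Eµ-MTCP1 mice from 10, 16 and 9 reads in wildtype to 26, 73 and 30 reads (log2 fold change 2.15 ± 0.54, adjusted p = 0.0328). Eµ-TCL1 mice had 46, 24 and 43 reads (adjusted p = 0.0643). The glutamine carriers Slc1a5, Slc38a1 and Slc38a2 were not called in either comparison, with adjusted p between 0.168 and 0.986. Slc1a5 had 259, 277 and 348 CPM in Eµ-MTCP1, 325, 306 and 249 in Eµ-TCL1 and 299, 349 and 227 CPM in wildtype mice, ranges that coincide closely. The cystine carrier Slc7a11 did not reach the base mean required.

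**Figure D3:**
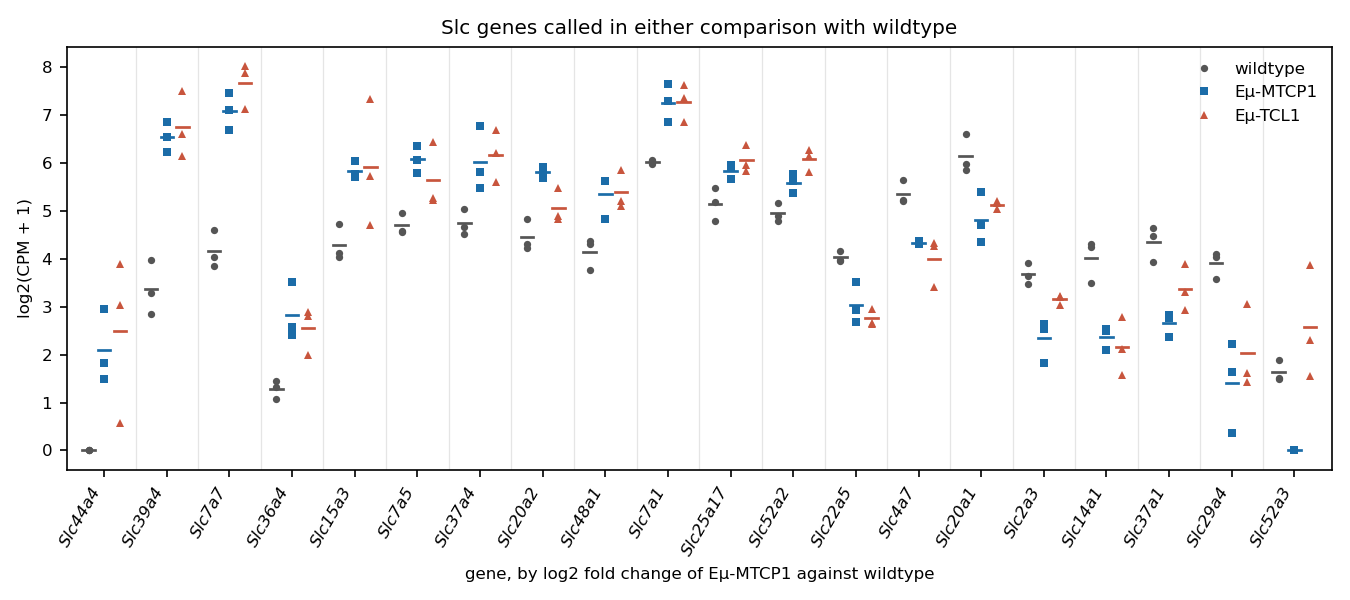
Log2(CPM + 1) of 20 Slc genes called in at least 1 comparison with wildtype, ordered by log2 fold change in Eµ-MTCP1 mice. Each point is 1 mouse and each bar a group mean. For Slc39a4 and Slc7a7 every transgenic mouse lies above every wildtype mouse, and for Slc4a7 and Slc14a1 every one lies below.

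Among the 23 metal carriers Slc39a4 had the largest log2 fold change in both comparisons. Slc39a4 (chr15:76612383-76617384) encodes ZIP4, a zinc importer best known from the gut. It was at 91.5, 73.6 and 114 CPM in Eµ-MTCP1, 180, 69.6 and 96.5 in Eµ-TCL1 and 14.7, 8.68 and 6.19 CPM in wildtype mice. The lowest transgenic mouse was thus more than 4 times the highest wildtype mouse. Log2 fold changes were 3.25 ± 0.42 (adjusted p = 0.00117) and 3.56 ± 0.42 (adjusted p = 0.000728). Of the 10 Slc39 and 5 Slc30 genes it was the only one called in either comparison. Among the alternatives, 2 of 18 called Slc30a1 in Eµ-TCL1 mice. In Eµ-MTCP1 mice Slc39a14 was called with isoform length offsets and with limma, and Slc30a9 without wildtype replicate 1.
Slc30a1, the zinc exporter of the cell surface, had 3.63, 1.28 and 0.328 CPM in Eµ-MTCP1, 1.12, 0.86 and 1.94 in Eµ-TCL1 and 4.23, 10.9 and 5.08 CPM in wildtype mice. All 6 transgenic mice were below the wildtype mice, but the adjusted p was 0.153 and 0.0922. Slc39a10 was at 10.4, 9.52 and 10.3 CPM in Eµ-MTCP1, 4.62, 7.61 and 3.87 in Eµ-TCL1 and 8.91, 8.03 and 9.79 CPM in wildtype mice, and was not called. Slc39a7, an exporter of zinc from the endoplasmic reticulum, had 846 to 1407 reads per library here but 18 to 31 in the deposited gene counts, so its level is uncertain.
Slc48a1, a heme carrier of lysosomes, rose in both groups, from 18.9, 19.6 and 12.5 CPM in wildtype mice to 27.4, 48.4 and 47.9 CPM (Eµ-MTCP1) and 56.4, 33.5 and 35.8 CPM (Eµ-TCL1). The log2 fold changes were 1.28 ± 0.31 (adjusted p = 0.0276) and 1.3 ± 0.31 (adjusted p = 0.025). The iron exporter Slc40a1 had 3.47, 9.38 and 5.41 CPM, 5.46, 0.123 and 2.21 CPM, and 15.7, 32.5 and 9.42 CPM in Eµ-MTCP1, Eµ-TCL1 and wildtype mice. It was not called (adjusted p = 0.243 and 0.0663), although 7 of 18 alternatives called it in Eµ-TCL1 mice. The iron importer Slc11a2 was not called either (adjusted p = 0.768 and 0.169).

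Among 20 partner and metal-handling genes, 19 were tested: none was called in Eµ-MTCP1 mice, while 2 rose in Eµ-TCL1 mice. Both encode metallothioneins, small proteins that bind zinc and copper. Mt1 had 35.3, 21.6 and 11.6 CPM in Eµ-TCL1 mice, 3.96, 11.4 and 5.09 CPM in Eµ-MTCP1 mice, and 3.63, 5.10 and 0.991 CPM in wildtype mice (log2 fold change in Eµ-TCL1 2.81 ± 0.64, adjusted p = 0.0219). Mt2 had at most 3 reads in each wildtype mouse, which is the floor used here, and it was at 13.3, 2.46 and 3.04 CPM in Eµ-TCL1 mice, whose mean exceeded that floor at least 16.3-fold (adjusted p = 0.0129). Eµ-TCL1 replicate 1 was the highest mouse for both genes, and without it the bound for Mt2 was 7.17-fold and neither gene was called (adjusted p = 0.0592 for Mt2 and 0.0784 for Mt1). The call of Mt1 held in 13 of 18 alternatives and that of Mt2 in 12 of the 17 that tested it. In Eµ-MTCP1 mice Mt2 was at 3.47, 1.85 and 2.46 CPM, all above wildtype (adjusted p = 0.0561). The metal-responsive factor Mtf1, the transferrin receptor Tfrc, the ferritin chains Fth1 and Ftl1, the lactate carrier partner Bsg and the stress factor Atf4 were not called in either comparison.

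**Figure D4:**
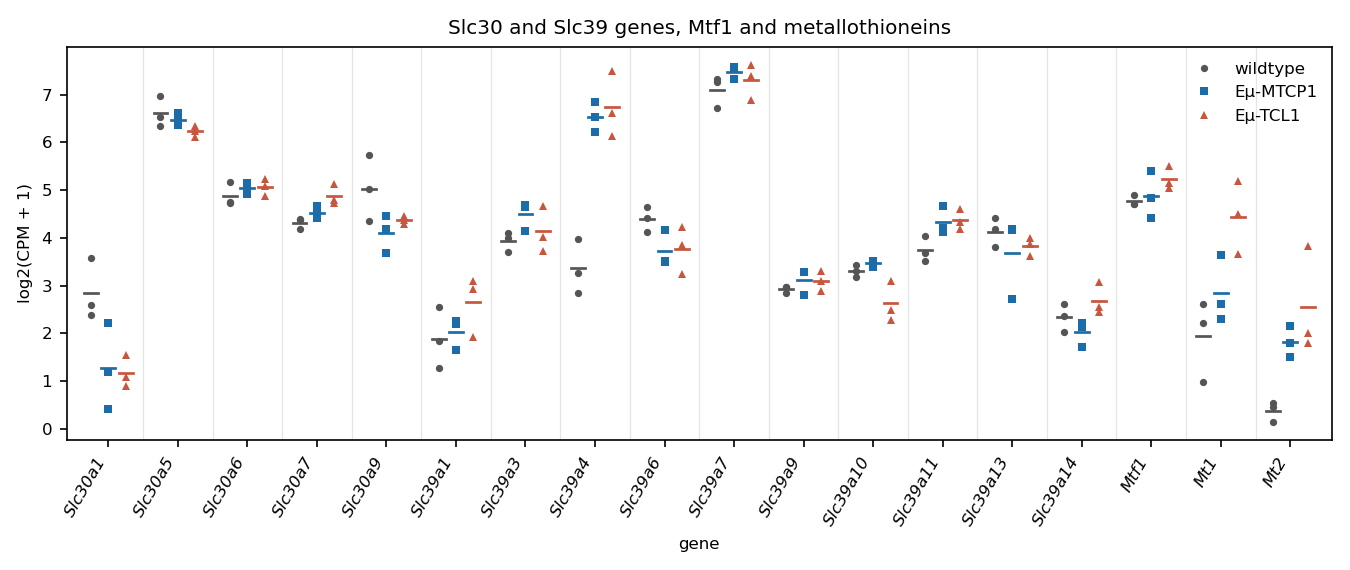
Log2(CPM + 1) of the 15 Slc30 and Slc39 genes among the 162, of Mtf1 and of 2 metallothionein genes. Each point is 1 mouse and each bar a group mean. Of the Slc genes shown, Slc39a4 alone was called, and Mt1 and Mt2 were called in Eµ-TCL1 mice.

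Slc44a4, a choline carrier-like gene that also transports thiamine pyrophosphate in the colon, had 0 reads in all 3 wildtype mice. Eµ-MTCP1 mice had 41, 18 and 11 reads and Eµ-TCL1 mice 99, 4 and 52 reads. Every transgenic mouse had reads, but Eµ-TCL1 replicate 2 was close to the floor of 3 reads. Against that floor per library the means were in Eµ-MTCP1 mice at least 9.67-fold higher, while Eµ-TCL1 mice reached at least 18.7-fold (adjusted p = 0.0325 and 0.019). Replicate 1 was the highest mouse of each group: without it the bounds were 5.68-fold in Eµ-MTCP1 mice, where the call was lost (adjusted p = 0.0694), and 10-fold in Eµ-TCL1 mice (adjusted p = 0.0453). Without the low Eµ-TCL1 replicate 2 the bound was 27.4-fold. The deposited gene counts also held 0 reads in the 3 wildtype mice.

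Slc25a17, a peroxisomal carrier of coenzyme A and other cofactors, rose in Eµ-TCL1 mice from 35.2, 26.8 and 43.4 CPM to 56.3, 81.5 and 61.4 CPM (log2 fold change 0.92 ± 0.23, adjusted p = 0.0306). In Eµ-MTCP1 mice it was at 49.7, 60.7 and 58.7 CPM (adjusted p = 0.0917).
The riboflavin carrier Slc52a2 rose in Eµ-TCL1 mice, from 35.0, 28.7 and 26.5 CPM in wildtype mice to 76.5, 54.8 and 70.1 CPM (log2 fold change 1.16 ± 0.21, adjusted p = 0.00616). Eµ-MTCP1 mice had 40.3, 47.9 and 53.5 CPM, between the other groups (adjusted p = 0.0761). The folate carrier Slc19a1 was not called (adjusted p = 0.539 and 0.316).

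Of the main glucose importers, Slc2a3 was called in 1 comparison and Slc2a1 in none. Slc2a1, the widespread glucose importer, was at 75.3, 114 and 63.8 CPM in Eµ-MTCP1, 102, 62.0 and 73.3 in Eµ-TCL1 and 88.2, 60.5 and 61.7 CPM in wildtype mice, with no call. Slc2a3, a high-affinity glucose importer, fell in Eµ-MTCP1 mice from 10.1, 14.1 and 11.4 CPM to 4.79, 2.56 and 5.25 CPM (log2 fold change -1.50 ± 0.36, adjusted p = 0.0275). On the standard mouse reference the log2 fold change was -0.77 and the call was lost (adjusted p = 0.0629). Eµ-TCL1 mice stood between, at 8.40, 8.23 and 7.19 CPM (adjusted p = 0.336). Slc37a4, which carries glucose 6-phosphate into the endoplasmic reticulum, rose in both groups, from 31.9, 21.8 and 24.3 CPM to 54.7, 43.3 and 108 CPM (Eµ-MTCP1) and 102, 47.6 and 72.9 CPM (Eµ-TCL1). Its log2 fold changes were 1.40 ± 0.37 (adjusted p = 0.042) and 1.51 ± 0.37 (adjusted p = 0.031). The related Slc37a1 fell in Eµ-MTCP1 mice from 21.2, 24.1 and 14.2 CPM to 4.13, 5.82 and 6.07 CPM (log2 fold change -1.89 ± 0.37, adjusted p = 0.0104), and was at 6.58, 8.84 and 13.8 CPM in Eµ-TCL1 mice (adjusted p = 0.105). The lactate carriers Slc16a1 and Slc16a3 were low throughout, at 1.24 to 11.6 and 1.36 to 9.41 CPM, and neither was called.

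The phosphate carriers Slc20a1 and Slc20a2 moved in opposite directions in Eµ-MTCP1 mice. Slc20a1, whose promoter window with its E-box matches is printed above, fell from 61.9, 95.7 and 56.7 CPM in wildtype mice to 41.1, 25.1 and 19.4 CPM (log2 fold change -1.33 ± 0.30, adjusted p = 0.0199). It fell also in Eµ-TCL1 mice, to 35.7, 34.9 and 31.7 CPM (-1.07 ± 0.29, adjusted p = 0.0476), where the call was lost in 9 of 18 alternatives. Slc20a2 rose in Eµ-MTCP1 mice from 18.7, 27.4 and 17.6 CPM to 55.3, 50.3 and 59.1 CPM (1.37 ± 0.25, adjusted p = 0.00748). In Eµ-TCL1 mice it was at 43.3, 28.5 and 27.5 CPM, replicates 2 and 3 close to the highest wildtype mouse (adjusted p = 0.142). The sodium bicarbonate carrier Slc4a7 fell in both groups, from 36.3, 35.8 and 48.7 CPM to 19.8, 18.9 and 18.9 CPM (Eµ-MTCP1) and 9.66, 19.2 and 18.1 CPM (Eµ-TCL1). Its log2 fold changes were -1.07 ± 0.28 (adjusted p = 0.039) and -1.36 ± 0.28 (adjusted p = 0.0131).

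Slc14a1, a urea carrier best known from red cells and kidney, fell in both groups. It had 18, 10.3 and 18.7 CPM in wildtype mice, 4.62, 3.27 and 4.76 CPM (Eµ-MTCP1) and 1.96, 5.89 and 3.32 CPM (Eµ-TCL1), without overlap. The log2 fold changes were -1.89 ± 0.45 (adjusted p = 0.0272) and -2.06 ± 0.45 (adjusted p = 0.0183). Of 7 erythroid markers, 6 were in the table and tested, and none was called. Their summed level was 26.7 to 313 CPM in Eµ-MTCP1, 22.5 to 70.4 in Eµ-TCL1 and 37.5 to 173 in wildtype mice, and none of the 6 was at 0 throughout a group. The part of erythroid RNA in the Slc14a1 values was not tested.
Slc22a5, the carnitine importer, fell in Eµ-TCL1 mice from 16.9, 14.8 and 14.4 CPM to 5.32, 6.75 and 5.26 CPM (log2 fold change -1.41 ± 0.33, adjusted p = 0.0244). In Eµ-MTCP1 mice it was at 6.61, 10.4 and 5.41 CPM, also below wildtype (adjusted p = 0.0782). Slc22a5 and Slc22a21 are close relatives, so reads could be divided between them. Slc22a21 had 0.7, 6.26 and 7.19 CPM in Eµ-TCL1 mice and 0.151, 1.09 and 0.867 CPM in wildtype mice (adjusted p = 0.257 by edgeR). Its Eµ-TCL1 replicates 2 and 3 thus lay above wildtype, opposite to Slc22a5. The part of such sharing in the fall of Slc22a5 was not tested. Slc15a3, a histidine and peptide carrier of endolysosomes that is abundant in macrophages, rose in Eµ-TCL1 mice, with 51.8, 160 and 24.9 CPM against 25.5, 15.3 and 16.4 CPM in wildtype mice. These groups overlapped, and the call (log2 fold change 2.05 ± 0.55, adjusted p = 0.0439) was lost in 11 of 18 alternatives. It gave way, among others, when Eµ-TCL1 replicate 2, the highest mouse, was left out, where the log2 fold change was 0.99. Eµ-MTCP1 mice had 65.2, 50.9 and 53.7 CPM of Slc15a3, all above wildtype (log2 fold change 1.57, adjusted p = 0.107), and the gene was called there in 3 of 18 alternatives. The myeloid marker levels given with Slc7a7 stand beside this gene too. Slc15a4, its endolysosomal relative with a role in sensing of nucleic acids, was not called (adjusted p = 0.704 and 0.392).
Slc29a4, a carrier of monoamines and adenosine, fell in Eµ-MTCP1 mice from 101, 148 and 89 reads to 22, 2 and 13 reads (log2 fold change -2.81 ± 0.78, adjusted p = 0.0491). The call was lost in 11 of 18 alternatives, and the log2 fold change was -0.90 when isoform lengths were taken into account and -3.59 without Eµ-MTCP1 replicate 1. Eµ-TCL1 mice had 12, 60 and 15 reads (adjusted p = 0.137). The nucleoside carrier Slc29a1 was not called (adjusted p = 0.669 and 0.357).

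The transgenic groups were then compared with each other. None of the 162 Slc genes was called by edgeR between Eµ-TCL1 and Eµ-MTCP1 mice, against 5 of 11165 genes (0.0448%). At an unadjusted p under 0.05 there were 14 Slc genes, 7 higher and 7 lower in Eµ-TCL1 mice, or 8.64% against 6.42% of all genes tested. DESeq2 called 2, Slc52a3 and Slc15a2, and edgeR without the expression filter called Slc52a3. Those of lowest p included Slc52a3, Slc15a2, Slc25a25 and Slc20a2.
Slc52a3, another riboflavin carrier, had 0 reads in all 3 Eµ-MTCP1 mice. Wildtype mice had 12, 25 and 15 reads, and Eµ-TCL1 mice 98, 32 and 14. Against a floor of 3 reads per library the mean was at least 4.52-fold lower in Eµ-MTCP1 than in wildtype mice (adjusted p = 0.021) and at least 13.9-fold lower than in Eµ-TCL1 mice (adjusted p = 0.175). Eµ-TCL1 replicate 1 carried much of the latter bound, which was 6.23-fold without it (adjusted p = 0.173). The deposited gene counts, which include non-coding ends, held 3, 2 and 2 reads in the Eµ-MTCP1 mice.
Slc15a2, a peptide carrier, had 50, 83 and 112 reads in Eµ-MTCP1, 5, 0 and 13 reads in Eµ-TCL1 and 25, 50 and 17 reads in wildtype mice. The transgenic groups lay on opposite sides of wildtype in CPM, without overlap among any of the 3 groups. The log2 fold change between them was -3.94 ± 0.88 (adjusted p = 0.327 by edgeR, 0.00026 by DESeq2), and in edgeR it was -5.18 without Eµ-TCL1 replicate 3 and -3.34 without Eµ-TCL1 replicate 2.
Slc25a25, a mitochondrial ATP-Mg/phosphate carrier, had 14.3, 19 and 35.3 CPM in Eµ-TCL1 mice against 10.2, 10.8 and 10.8 CPM in Eµ-MTCP1 mice (log2 fold change 1.10 ± 0.36, adjusted p = 0.629). For Slc20a2 the direct difference was -0.73 ± 0.25 (adjusted p = 0.639).

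Calls in 1 comparison alone do not show that the transgenic groups differ. For the 11 genes called against wildtype in a single transgenic group, Slc52a3 and Slc20a2 included, the direct log2 difference of Eµ-TCL1 against Eµ-MTCP1 had an adjusted p of 0.175 to 0.917. Among these it was 0.92 ± 0.36 for Slc2a3, 0.87 ± 0.37 for Slc37a1, 0.51 ± 0.20 for Slc52a2, 0.24 ± 0.22 for Slc25a17, 0.48 ± 0.53 for Slc15a3 and -0.37 ± 0.33 for Slc22a5. It was -0.36 ± 0.51 for Slc36a4 and 0.90 ± 0.77 for Slc29a4. For the genes called in both, Slc7a7 had a direct difference of 0.60 ± 0.30 and Slc39a4 one of 0.31 ± 0.38, with adjusted p of 0.792 and 0.905.

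**Figure D5:**
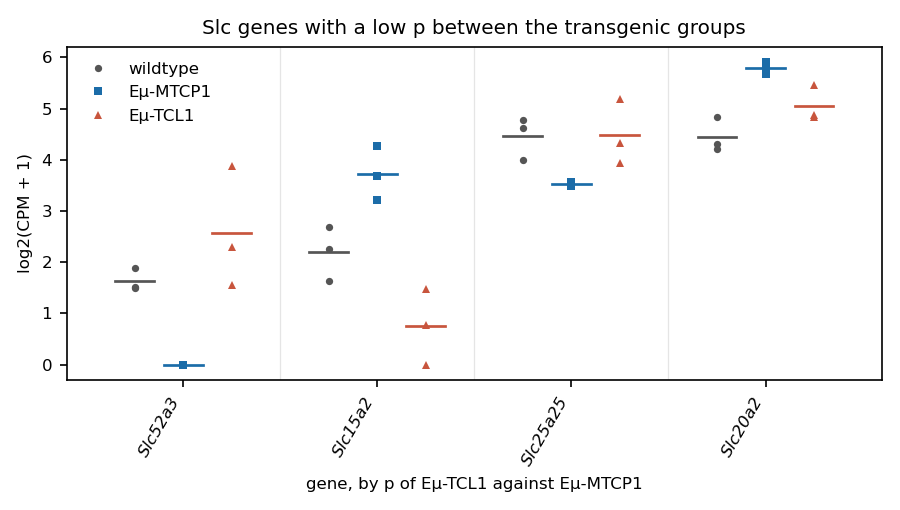
Log2(CPM + 1) of 4 of the Slc genes with the lowest p between Eµ-TCL1 and Eµ-MTCP1 mice. Each point is 1 mouse and each bar a group mean. Slc52a3 lies at 0 in all 3 Eµ-MTCP1 mice, and for Slc15a2 the Eµ-MTCP1 mice lie above and the Eµ-TCL1 mice below the wildtype mice, though neither passed an adjusted p under 0.05 in edgeR.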

How the data were processed

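Splenic B cells of 9 mice were examined by RNA-sequencing, grouped by the deposited labels. The Slc genes and gene lists were chosen with earlier results of these data known. The authors obtained estimated counts per transcript from Salmon (1.0.0 in the submitters' processing notes) on a mouse reference with human transgene sequences added. That reference holds coding sequences (87.3% of its transcript lengths are multiples of 3), so genes with long non-coding ends have few reads. TPM values of the same transcripts are the authors' Salmon output. Whole counts per gene were deposited from alignment to GRCm38.p4 (HISAT2 2.0.6 and featureCounts in the notes). Log2-like normalised values and the base mean, a normalised signal over libraries used to choose genes, were made by the authors with DESeq2. Their fold changes and p-values were not used, and 0 columns were left unmapped.

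Estimated counts were summed per gene (GENCODE M21, GRCm38) and rounded. At most 0.29% of the reads of a library fell on transcripts that could not be joined. Counts were scaled by TMM and tested in edgeR 4.0.16 (R 4.3.3) with its two-sided quasi-likelihood F test, in 1 fit of all 9 libraries, on 11165 genes kept by filterByExpr, with Benjamini-Hochberg adjustment over all of them. The SE is the log2 fold change divided by the square root of F. A group lies at the floor if no mouse has more than 3 reads, and folds against it are lower bounds that cover counting error only. The test was tried on simulated data.

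Named genes were, per comparison with wildtype, the called Slc genes of at least 2 CPM with the 10 largest and 10 smallest log2 fold changes, the 5 of lowest p between the transgenic groups, the 10 highest in wildtype TPM, and a set of known nutrient and metal carriers. Slc39a7 was added after its values were seen. A few genes that these rules or lists name are not reported here. Alternatives were DESeq2 1.42.0, its size factors, library size alone, no filter, the gene counts, the standard mouse reference, isoform length offsets, limma 3.58.1 on the log2-like values, immunoglobulin genes left out, and each mouse left out. RefSeq promoter windows matched 120 of the 162 genes.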

Additional observations from a re-analysis of the deposited data

How the results depend on the processing

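Under the 18 alternatives the counts of called Slc genes, 17 for Eµ-MTCP1, 14 for Eµ-TCL1 and 0 between the transgenic groups, stayed within 1.5 times except as follows. DESeq2 called 24 in Eµ-TCL1 mice, among them the 14, and 2 between the transgenic groups, and no expression filter gave 1 there. Leaving out 1 mouse gave 6 to 18 calls in Eµ-MTCP1 mice, 6 to 15 in Eµ-TCL1 mice and 0 to 0 between them; the cause was not tested beyond the smaller number of mice. A further 1008 values are log2 fold changes of single genes under each alternative. They cover the called genes against wildtype, and between the transgenic groups those called in 1 comparison or of lowest p. Other genes lie outside this count, and Slc1a5 (log2 fold changes 0.02 and 0.01 against wildtype) changed sign in 8 and 10 of 18 alternatives. Of the 1008, 865 kept their direction and side of the threshold, 122 lost the call, 16 gained it and 5 reversed. The 5 are differences between the transgenic groups that were called under no setting: Slc29a4 became -1.27 with isoform length offsets, -0.35 with limma and -0.09 without Eµ-TCL1 replicate 2 (-0.09 to 1.65 over the mice left out), Slc15a3 became -0.57 without that mouse (-0.57 to 0.9), and Slc36a4 became 0.15 without Eµ-MTCP1 replicate 2 (-0.6 to 0.15); the cause was not tested. Isoform length offsets moved 11 of the 162 genes by more than 1 on the log2 scale in some comparison, and 10 of these have reads on an isoform shorter than 300 coding bases. On the log2-like values limma moved 13 called values by more than 1.5 times, all 13 toward 0, among them Slc39a4 to 2.22 and 2.43. Slc3a1, Slc5a2 and Slc24a5 had fewer reads on the standard reference than on coding sequences, so their levels are uncertain. No paired analysis was possible because the replicate numbers follow the order of deposition and do not link mice.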

Other observations

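Outside the transporters, the plasma cell markers Prdm1 and Mzb1 were called higher in Eµ-MTCP1 mice (adjusted p = 0.0227 and 0.042 by edgeR), and Prdm1 in Eµ-TCL1 mice (adjusted p = 0.0401). Prdm1 had 28.6, 123 and 65.8 CPM (Eµ-MTCP1), 74.1, 41.1 and 63.5 CPM (Eµ-TCL1), and 24.5, 13.8 and 12.1 CPM in wildtype mice. The calls of Prdm1 held in 14 and 11 of 18 alternatives and that of Mzb1 in 10. The other 3 of 5 plasma cell markers were not called in either comparison. The 5 markers summed to 864 to 3780 CPM, 563 to 2700 CPM and 1010 to 1680 CPM in the same order of groups, and none was at 0 in any group. Of 7 T cell markers, 3 were tested and none was called, with sums of 33.6 to 139, 51.0 to 136 and 70.9 to 101 CPM. Lck, at 30.7 to 115, 42.3 to 90.2 and 68.6 to 94.9 CPM, made up most of each sum. Cd3e, Cd3d and Trac were highest in Eµ-TCL1 replicate 3, at 7.05, 8.71 and 6.78 CPM. In wildtype mice they were at most 1.66, 1.21 and 1.81 CPM. Cd3g was highest in Eµ-MTCP1 replicate 1, at 22.5 CPM.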
